A study of Mus musculus with 14 samples.

Results

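Class II presentation and costimulation genes were examined in microglia, the brain's resident macrophages, in mice raised with and without microorganisms. The 10 genes were taken by symbol from the deposited table, which held 14176 genes once 1 row was kept per symbol, and all 10 were found. They were the class II chain genes H2-Aa, H2-Ab1 and H2-Eb1, the invariant chain gene Cd74, the transactivator gene Ciita, the peptide-exchange genes H2-DMa and H2-DMb1, and the costimulation genes Cd86, Cd80 and Cd40. One group of 7 libraries came from C57BL/6 mice kept specific-pathogen-free (SPF), the other group of 7 from C57BL/6 mice kept germ-free (GF). All mice were 6 to 8 weeks old and had received no treatment. After density gradient enrichment, cells were sorted as CD11b-positive with low CD45, at 1000 cells per brain, and the libraries read the 3′ ends of polyadenylated RNA.

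Class II molecules display peptides from the endosomal pathway to CD4 T cells. An alpha and a beta chain assemble on the invariant chain, which guides them to endosomes, and H2-DM then exchanges the remaining fragment of the invariant chain for antigenic peptide. Transcription of the alpha and beta chain genes depends largely on CIITA, a coactivator that interferon gamma induces. CIITA is recruited to factors bound at conserved X and Y boxes near the start sites. CD80 and CD86 give T cells the second signal through CD28, and CD40 receives the CD40 ligand signal from T cells. Resting microglia of the healthy brain are known for low levels of class II.

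Values are the authors' normalized counts, and dividing a value by what 1 read was worth in its library gave read equivalents. Depth over all genes ranged from 906283 to 1633104 read equivalents in SPF and from 679446 to 1189182 in GF, with the lowest in GF 6 (exact two-sided permutation p = 0.0542). The share of genes at 0 was 25.1% ± 1.55 in GF against 21.9% ± 1.58 in SPF (SD, n = 7, exact two-sided permutation p = 0.00175). The labelled cell type was checked against 9 microglia markers, Tmem119, P2ry12, Cx3cr1, Csf1r, Sall1, Siglech, Fcrls, Gpr34 and Trem2. All were detected in every library, and their summed value lay between 36508 and 47467 normalized counts. GF 1 stood apart from the other 13 libraries in class II transcripts, so the tests of single genes are given with and without it, other than that of the summed H2-DM beta chain genes. The labels do not say that each library came from a separate animal, so p-values measure the spread between these libraries.

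The promoters of H2-Aa, H2-Eb1 and H2-DMb1 are shown because the first 2 genes were high together in GF 1 while the third was not. Each line holds the 150 bases before the RefSeq start site in GRCm38.p6, read 5′ to 3′ on the gene's own strand. Capitals mark the Y box letters (CTGATTGG, or its last 7 letters where the first differs) and a stretch of 13 bases that H2-Eb1 and H2-DMb1 share.
H2-Aa, chr17:34287824-34287973, minus strand: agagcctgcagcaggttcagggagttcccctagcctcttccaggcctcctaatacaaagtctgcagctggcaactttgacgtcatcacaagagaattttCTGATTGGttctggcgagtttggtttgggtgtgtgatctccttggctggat
H2-Eb1, chr17:34305717-34305866, plus strand: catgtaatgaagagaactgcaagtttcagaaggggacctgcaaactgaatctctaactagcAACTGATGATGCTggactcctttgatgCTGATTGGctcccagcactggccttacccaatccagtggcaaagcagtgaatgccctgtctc
H2-DMb1, chr17:34153041-34153190, plus strand: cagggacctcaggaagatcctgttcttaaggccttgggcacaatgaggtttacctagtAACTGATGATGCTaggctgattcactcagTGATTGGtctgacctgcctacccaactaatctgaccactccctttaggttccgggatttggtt

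Promoter windows of 300 bases, 250 before and 50 after the start, were found for 5 of the 10 members, namely H2-Aa, H2-Eb1, H2-DMa, H2-DMb1 and Cd80. They were also found for 4 further class II genes, H2-Oa, H2-Ob, H2-DMb2 and H2-Eb2. The letters CTGATTGG were searched on both strands and began 51 bases before the start in H2-Aa, 62 in H2-Eb1, 46 in H2-Oa and 103 in H2-Eb2. They occurred in 4.10% of all 32851 promoter windows and in no window of H2-DMa, H2-DMb1 or Cd80. The shorter TGATTGG, chosen after the sequences were seen and contained in the first, was also present in H2-DMb1, H2-DMb2 and H2-Ob, and in 7.82% of all windows. An X box pattern, searched on both strands, was present in H2-Oa and in 1.18% of all windows, and in none of the 5 members' windows. No looser form of this pattern was searched, unlike for the Y box. Its absence therefore does not show that these promoters lack an X box. The 13 bases that H2-Eb1 and H2-DMb1 share began 89 and 92 bases before the start, farther out than their Y box letters. Whether they belong to an X box was not tested. The stretch AACTGATGATGCT, also chosen after the sequences were seen, occurred in 3 of the 32851 windows, those of H2-Eb1, H2-DMb1 and Slc39a10.

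The class II chain genes were low in 13 libraries and high in GF 1. H2-Aa, which encodes the alpha chain of I-A, was at 0 in 4 of 7 SPF libraries and reached 11.8 normalized counts in SPF 2. In GF its lowest value was 0, its median 0.995 and its highest 931, the last in GF 1. The next GF library held 8.97, so GF 1 stood 78.7-fold above the highest of the other 13 libraries. H2-Eb1, which encodes the beta chain of I-E, had a lowest value of 0, a median of 0.884 and a highest of 7.43 in SPF. In GF its lowest and median values were 0 and its highest was 653, again in GF 1, or 80.9-fold above the 8.07 of GF 4. Outside GF 1 these genes rested on at most 10 reads per library for H2-Aa and 11 for H2-Eb1, against 894 and 627 in GF 1.

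H2-Ab1 and Cd74 were detected in all 14 libraries and showed the same single high library. H2-Ab1, the I-A beta chain gene, ranged from 7.07 through a median of 16.3 to 27.2 in SPF and from 10.9 through 18.2 to 413 in GF. GF 1 was 10.1-fold above GF 5, the next library, and the remaining GF libraries overlapped the SPF range. Cd74 ranged from 40.8 through a median of 85.8 to 139 in SPF and from 79.7 through 105 to 1195 in GF. GF 1 was 8.52-fold above GF 4, which held 140. The 4 genes together made up 0.275% of the total of GF 1 and 0.00508% to 0.0155% of the totals of the other 13 libraries. In bulk samples, fewer or more cells that express a gene and less or more RNA per cell cannot be told apart.

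Between GF and SPF, none of these 4 genes passed the test, with or without GF 1. The test was limma on log2(normalized counts + 1.44) over genes with a mean of at least 7.22, with Benjamini-Hochberg adjustment over all genes tested and a threshold of 0.05. This scale understates the changes of low genes. With all libraries the log2 difference, GF minus SPF, was 1.35 ± 1.09 (SE, adjusted p = 0.508) for H2-Aa and 1.10 ± 1.06 (SE, adjusted p = 0.590) for H2-Eb1. H2-Aa and H2-Eb1 exceeded the minimum mean only through GF 1, and without it they averaged 2.20 and 1.74 normalized counts and were not tested. H2-Ab1 differed by 0.80 ± 0.54 (SE, adjusted p = 0.402), which became 0.18 without GF 1 with a 95% interval from -0.57 to 0.93 (adjusted p = 0.831). Cd74 differed by 0.88 ± 0.40 (SE, adjusted p = 0.196), which became 0.37 without GF 1 with an interval from -0.08 to 0.83 (adjusted p = 0.347). Over the 6 other GF libraries Cd74 stood at 106 ± 23.4 normalized counts (SD, n = 6), against 84.6 ± 31.1 in SPF (SD, n = 7).

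**Figure D1:**
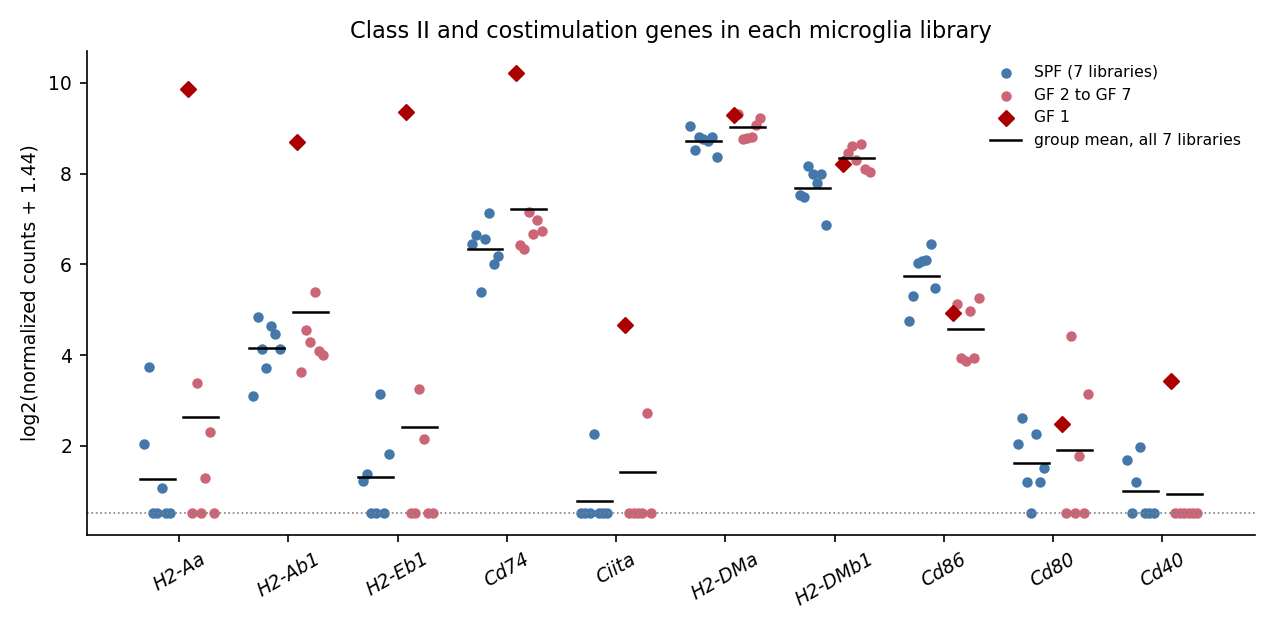
The 10 genes in each library, as log2 of normalized counts plus 1.44, with SPF in blue, GF in pink and GF 1 as a dark red diamond, each group's mean of log2 values as a black line and a value of 0 as a dotted line. GF 1 lies far above all other libraries for H2-Aa, H2-Ab1, H2-Eb1 and Cd74, and within their range for H2-DMa, H2-DMb1, Cd86 and Cd80.

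Ciita, the gene of the class II transactivator, was at 0 in 11 of 14 libraries. In SPF it was detected in SPF 4 alone, at 3.34 normalized counts. In GF it was detected in GF 1, at 23.9 or 23 reads, and in GF 6, at 5.21 or 3 reads. A library at 0 does not exclude expression, since 3 reads, the limit that a count of 0 allows, corresponded to between 2.03 and 5.21 normalized counts across libraries. Intervals and limits of this kind cover counting error only. Its mean of 2.32 lay below the minimum, and it was not tested.

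GF 1 was also high in a small number of genes outside the class II set. With 1.44 added to every value, 6 of 8799 genes with a mean above the minimum stood over 4 times above the highest of the other 13 libraries in GF 1, or 0.0682%. They were H2-Aa, H2-Eb1, H2-Ab1, Cd74, S100a4 and Crip1. GF 1 was singled out by the class II genes, so their place here is a description and not a separate finding, and the count of 6 includes them. H2-Aa, H2-Eb1 and S100a4 also exceeded the minimum mean only through GF 1. S100a4, which encodes a calcium-binding protein, was at 135 normalized counts against a median of 0 and at most 7.77 elsewhere. Crip1, which encodes a small LIM-domain protein, was at 60.9, from 58.5 reads. The next 4 genes by this ratio, which did not reach 4 times, were Dclk2, a kinase gene, at 58.3 against at most 16.9, the chemokine gene Ccl5 at 73.9 against at most 22.1, the cytokine receptor gene Il2rg at 34.4 against at most 13.3, and Ufm1, the gene of a ubiquitin-like modifier, at 28.1 against at most 12.3. The count over 4 times was 5 in GF 6 and at most 1 in each of the remaining 12 libraries.

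When genes were required to reach the minimum in the library itself and not as a mean, 44 stood over 4 times above all other libraries in GF 1. The 44 include H2-Aa, H2-Eb1, H2-Ab1 and Cd74, by which GF 1 was singled out. The same count ran from 3 to 25 in the other libraries, with 25 in GF 6. Of the 44 genes, 23 were at 0 in all other 13 libraries. The highest of these 23, chosen after its value was seen, was Plbd1, a phospholipase B-like gene, at 69.7 normalized counts. Dnase1l3, which encodes a secreted endonuclease and was chosen in the same way, stood at 68.7 against at most 1.74. The chemokine receptor gene Ccr7 and the signalling adaptor gene Traf1 were at 13.5 and 16.7, and both were at 0 in every other library. Traf1 was also chosen after its value was seen, and most of the 44 genes are not named here.

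Markers of other class II-bearing cells were read in GF 1 beside these values. The summed dendritic cell list, with 10 of 11 genes in the table, stood at 192 normalized counts in GF 1, against 54.0 to 151 in SPF and 70.6 to 128 in the other GF libraries. Within it, Flt3, which encodes a growth factor receptor of dendritic cells, was at 19.8 against at most 2.97. Batf3 made up 90.6 of the sum in GF 1, within the 41.2 to 123 of the other libraries. Itgax, the CD11c gene, was at 51.0, near the 49.3 of the next library. Zbtb46, which encodes a transcription factor of conventional dendritic cells, was at 3.12, within the range of the others, and Xcr1 was at 0. Itgae was at 2.08, also within the range of the others. Cd209a, a C-type lectin gene, was at 5.20 and was listed at 0 elsewhere. So were Ccr7, which is on this list, at 13.5, Cd24a at 4.16 and Clec10a at 2.08.

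The T and natural killer cell list was likewise highest in GF 1, and the other lists were not. The border macrophage list stood at 628 normalized counts in GF 1, against 455 to 564 in SPF and 443 to 676 in the other GF libraries. In GF 1 its members Mrc1, F13a1, Pf4 and Cbr2 were at 0, and Stab1 made up 621 of the sum. The B cell list, with 4 of 10 genes in the table, stood at 104, against 71.8 to 116 in SPF and 79.6 to 121 in the other GF libraries, with Cd79a at 0. The monocyte list, with 5 of 9 genes, stood at 18.2 against 1.77 to 19.6 in SPF and 0 to 23.7 in the other GF libraries, with Ccr2 and Plac8 at 0. Its member Ly6c2 was at 9.89 against at most 1.01 elsewhere. The T and natural killer cell list, with 8 of 12 genes, stood at 22.9, against 0 to 5.10 in SPF and 0 to 18.9 in the other GF libraries. Its coreceptor genes Cd8a, at 11.5, and Cd4, at 6.25, were high in GF 1 and made up most of the sum. Its members Cd3g, Ncr1, Gzmb, Lck and Thy1 were each at 1.04, or 1 read, and Nkg7 was at 0. Thy1 reached 18.9 in another library. The neutrophil list, with 3 of 8 genes, was at 0 in GF 1. The part of any of these cells in the class II values of GF 1 was not tested.

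The microglia markers of GF 1 lay within the range of the other libraries. Their sum was 43652 normalized counts in GF 1, against 36508 to 41747 in SPF and 41296 to 47467 in the other GF libraries. Tmem119, a microglial surface protein gene, stood at 9742 and Sall1, a microglial transcription factor gene, at 319, against at most 9899 and 349 elsewhere. Astrocyte, neuron, oligodendrocyte, endothelial and erythroid lists in GF 1 stood at 156, 22.9, 272, 83.8 and 41.4. None of these 5 sums was the highest of the 14 libraries.

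**Figure D2:**
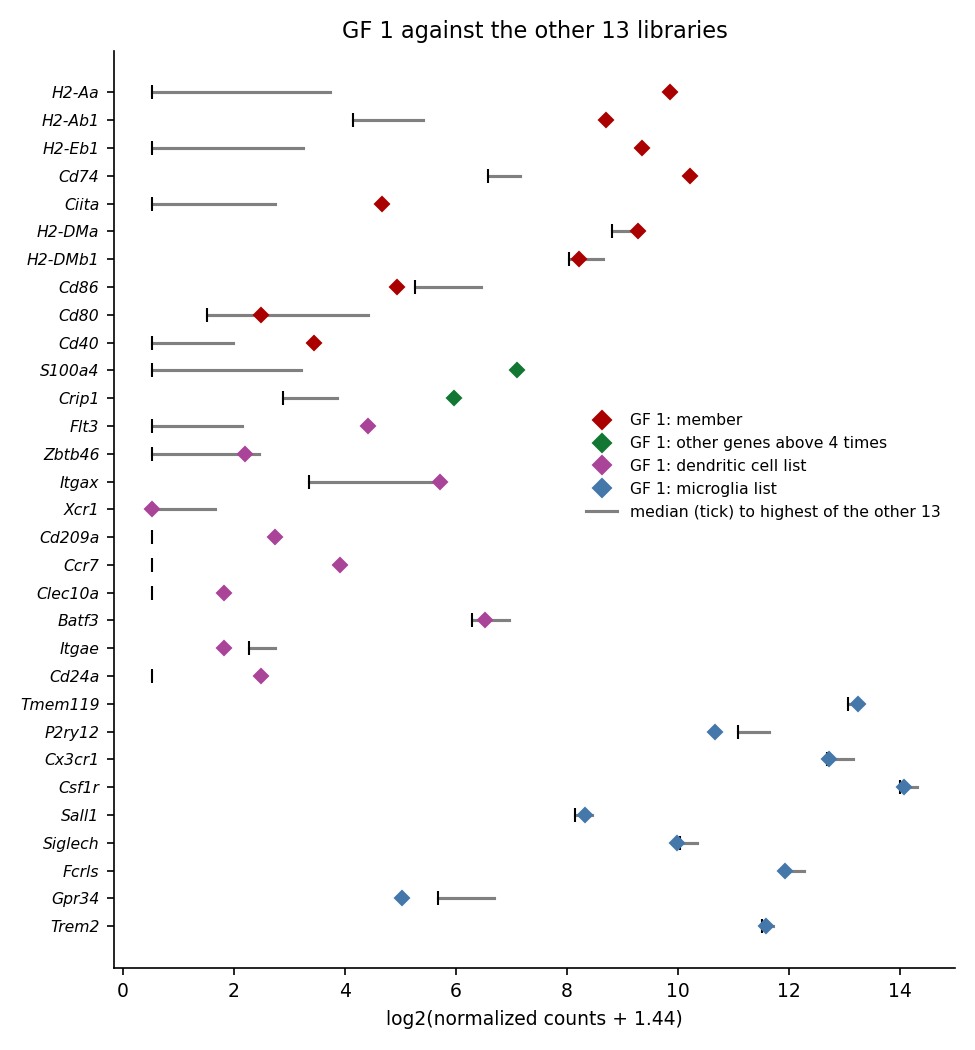
GF 1 (diamonds) beside the median (tick) and the highest value (right end of the grey line) of the other 13 libraries, as log2 of normalized counts plus 1.44, with the 10 class II and costimulation genes in red, S100a4 and Crip1 in green, dendritic cell markers in purple and microglia markers in blue. GF 1 lies right of every grey line for H2-Aa, H2-Eb1, Flt3 and Ccr7 and at or left of its right end for the microglia markers.

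The peptide-exchange members H2-DMa and H2-DMb1 were abundant in every library and did not share the GF 1 pattern. H2-DMb1, the beta chain gene of H2-DM, ranged from 115 through a median of 221 to 285 normalized counts in SPF and from 261 through 316 to 400 in GF. GF 1 held 296, inside the range of its group. The groups overlapped narrowly, since 6 of 7 SPF libraries lay below the lowest GF library and 5 of 7 GF libraries lay above the highest SPF library. H2-DMb1 rose in GF, with means of 212 ± 57.9 in SPF against 326 ± 54.7 (SD, n = 7). In log2 terms it was higher by 0.65 ± 0.16 (SE, limma adjusted p = 0.0141). Without GF 1 the difference was 0.67 ± 0.17 (SE, adjusted p = 0.0202).

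The values of H2-DMb1 were uncertain in part. They were fractions of a read in 7 of 7 SPF libraries and in 2 of 7 GF libraries, while all positive values of the other 9 members were whole within 0.01 of a read. H2-DMb2, a neighbouring H2-DM beta chain gene of similar sequence, had fractional values in 6 SPF and 5 GF libraries. It was highest in GF 1, at 44.2 normalized counts against at most 30.4 elsewhere. In GF 1, GF 3 and GF 6, H2-DMb1 was whole and H2-DMb2 was fractional, and in SPF 6 the reverse held. Whether reads were divided between these genes or with others was not tested. H2-DMb2 itself averaged 17.9 ± 7.99 in SPF against 26.2 ± 9.04 in GF (SD, n = 7), and its difference of 0.58 did not pass (adjusted p = 0.304), nor did that of 0.45 without GF 1 (adjusted p = 0.473). The sum of both genes, a choice made once the data had been seen, averaged 230 ± 64.6 in SPF against 352 ± 53.5 in GF (SD, n = 7). This sum rose by 0.65 on the log2 scale (limma adjusted p = 0.0131). It does not remove the uncertainty, since the fractions were not always present in both genes of a library.

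H2-DMa, the alpha chain gene of the same complex, did not pass. It ranged from 328 through a median of 434 to 532 normalized counts in SPF and from 430 through 536 to 640 in GF. The groups overlapped, with 3 SPF libraries below all GF libraries and 4 GF libraries above all SPF libraries. The log2 difference was 0.31 ± 0.12 (SE, adjusted p = 0.117), with a 95% interval from 0.07 to 0.56, and 0.27 without GF 1 (adjusted p = 0.213). The difference between the changes of H2-DMa and H2-DMb1 was not tested.

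Cd86 was lower in GF and was the single costimulation gene above the minimum mean. It ranged from 25.6 through a median of 63.7 to 86.5 normalized counts in SPF and from 13.1 through 29.1 to 36.8 in GF. The ranges overlapped through SPF 1 alone, as the other 6 SPF libraries lay above the highest GF library, GF 7. Cd86 fell in GF, with means of 55.7 ± 20.9 in SPF against 24.3 ± 10.3 (SD, n = 7). The change in log2 terms was -1.16 ± 0.30 (SE, limma adjusted p = 0.0175). Without GF 1, which held 29.1, it was -1.22 ± 0.31 (SE, adjusted p = 0.0207). GF 3, GF 4 and GF 6 were lowest, with 14, 13 and 8 reads, against 29 to 100 reads in SPF. Mean depth was 1082540 ± 180964 read equivalents in GF against 1313020 ± 224432 in SPF (SD, n = 7). Cd86 passed (adjusted p = 0.0467) when GF 6 and SPF 2, the shallowest of each group, were left out together with GF 1.

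Cd80 and Cd40 were near the limit of detection. Cd80, the second CD28 ligand gene, was at 0 in 1 SPF and 3 GF libraries, with medians of 1.41 and 1.99 normalized counts. Its highest values were 4.73 in SPF and 19.9 in GF, the latter 20 reads in GF 3. GF 1 held 4.16, or 4 reads. Cd40 was at 0 in 4 SPF libraries and in all GF libraries other than GF 1, where it stood at 9.37, or 9 reads. Its highest SPF value was 2.51, or 3 reads in SPF 4. With means of 3.38 and 1.04 neither was tested.

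Of the 7 members tested, 1 rose and 1 fell, and the same 2 were called without GF 1 among the 5 then tested. Over all 8799 genes tested, 6.76% passed, of which 3.69% rose and 3.07% fell. Without GF 1, 5.83% passed, with 3.12% higher and 2.71% lower. The split of 325 rises and 270 falls became 193 and 422 under upper-quartile scaling and 252 and 283 under quantile normalization. Since H2-Aa and H2-Eb1 were tested only because of GF 1, nothing is read from the members' share. The median log2 difference of the tested members was 0.80, or 0.27 without GF 1, beside -0.02 over all genes in both cases. As the 0.80 includes H2-Aa and H2-Eb1 and depends on GF 1, nothing is read from these medians either. No member had groups without overlap, which 1.28% of the genes had with GF higher and 0.886% with GF lower.

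**Figure D3:**
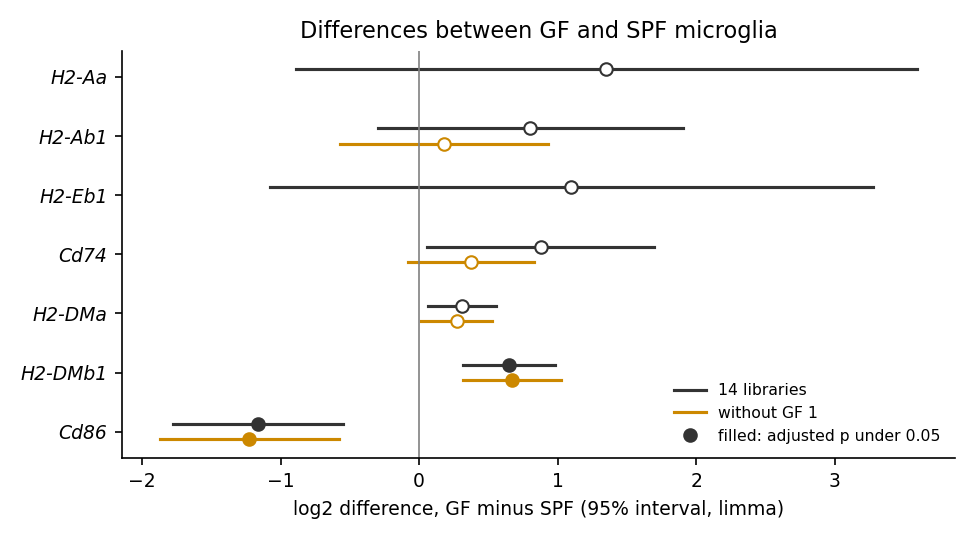
Log2 differences, GF minus SPF, of the 7 tested members with 95% intervals from limma, for 14 libraries (black) and without GF 1 (orange, where still tested), filled where the adjusted p was under 0.05. H2-DMb1 at 0.65 and Cd86 at -1.16 kept their places without GF 1, while Cd74 moved from 0.88 to 0.37 and H2-Ab1 from 0.80 to 0.18.

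The genes most like Cd74 across libraries were the class II chain genes, through GF 1. Over 14 libraries on the log2 scale, Pearson's r with Cd74 was 0.92 for H2-Eb1, 0.85 for H2-Ab1 and 0.85 for H2-Aa. The next were B3gat3, a glucuronosyltransferase gene of proteoglycan synthesis, at 0.79 and Zfpl1, which encodes a Golgi zinc finger protein, at 0.72. Without GF 1, over 13 libraries, r was 0.55 for H2-Eb1, 0.15 for H2-Ab1 and 0.17 for H2-Aa. The likeness of H2-Ab1 and H2-Aa thus rested on GF 1, and that of H2-Eb1 did so in part. H2-Aa and H2-Eb1 were ranked only because GF 1 lifted their means over the minimum, and each was at 0 in 7 libraries. B3gat3 had 0.66 and Zfpl1 0.31 without GF 1. The 5 genes most like Cd74 without GF 1 were different ones, namely Zfp319 at 0.87, Sec61a1 at 0.87, Frrs1 at 0.84, Rasa2 at 0.84 and Cxcr5 at 0.82. None of those 5 passed between the groups with or without GF 1 (limma adjusted p from 0.330 to 0.771). B3gat3 rose in GF by 0.67 on the log2 scale (limma adjusted p = 0.0224), and its highest library was GF 1 at 182 normalized counts. Without GF 1 its difference was 0.55 and did not pass (adjusted p = 0.0577). Zfpl1 differed by 0.11 and did not pass (adjusted p = 0.749, or 0.999 without GF 1).

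The genes most like Cd86 over 14 libraries were Zc3hav1, an antiviral zinc finger protein gene, with r = 0.91, Pag1, a membrane adaptor gene, with 0.87, Selenof, a selenoprotein gene of the endoplasmic reticulum, with 0.87, Top2b, a DNA topoisomerase gene, with 0.87, and Itm2b, a membrane protein gene, with 0.84. Without GF 1 their values were 0.91, 0.88, 0.87, 0.87 and 0.85. The first 4 stayed among the 5 most like Cd86 without GF 1, and Cttnbp2nl at 0.85 took the place of Itm2b. Libraries also share depth and housing in these values. Because r was taken over both groups and Cd86 itself fell in GF, genes chosen for likeness to it tend to fall too. Their falls are therefore no separate evidence. Pag1 fell by 0.63, Selenof fell by 0.53 and Itm2b fell by 0.29 on the log2 scale (limma adjusted p = 0.0318, 0.00948 and 0.0403). Without GF 1, Pag1 and Selenof passed (adjusted p = 0.0481 and 0.0135) and Itm2b did not (adjusted p = 0.0720). Cttnbp2nl fell by 0.57, and by 0.50 without GF 1 (adjusted p = 0.0158 and 0.0392). Zc3hav1 differed by -1.79 and Top2b by -1.35, and neither passed (adjusted p = 0.0650 and 0.195), nor without GF 1 (adjusted p = 0.0580 and 0.177).

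Other genes of class II processing did not pass with all libraries. Of 13 listed genes, 12 were in the table and 11 were tested, of which 0 passed in limma, beside 6.76% of all genes. The unadjusted p was under 0.05 for 1 of the 11, beside 1928 of all 8799 genes. The median log2 difference of the 11 was 0.14. Marchf1, which encodes the ubiquitin ligase that removes class II and CD86 from the cell surface, had the smallest p. Its mean was 46.4 ± 25.9 normalized counts in SPF against 84.6 ± 39.4 in GF (SD, n = 7), or 0.96 in log2 terms (adjusted p = 0.0908). It passed without GF 1, which held 35.4, with 1.14 (adjusted p = 0.0457), and without SPF 2 (adjusted p = 0.0466). The protease gene Ctss, which trims the invariant chain, averaged 4830 ± 649 in SPF against 5328 ± 855 in GF (SD, n = 7) and did not pass (adjusted p = 0.432, or 0.269 without GF 1). Ctss and H2-Eb2, which was detected in GF 1 alone at 5.20 normalized counts, were chosen after their values were seen.

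Among regulators of class II transcription and of the interferon gamma signal, 2 of 21 tested passed, both higher in GF, with a median log2 difference of -0.05. The same 2 passed without GF 1. Over all genes 6.76% passed and 3.69% rose. The unadjusted limma p was under 0.05 for 5 of the 21, beside 1928 of all 8799 genes. Nothing is read from counts this small. Ifngr1, an interferon gamma receptor chain gene, rose by 0.35 on the log2 scale, averaging 1261 ± 117 normalized counts in SPF against 1613 ± 161 in GF (SD, n = 7; adjusted p = 0.0105). Spi1, which encodes PU.1, rose by 0.44 (adjusted p = 0.0254), a call lost under 7 of 27 alternatives. Among these were leaving out SPF 5 or SPF 7 (adjusted p = 0.0632 and 0.0572), leaving out GF 1, GF 6 and SPF 2 (adjusted p = 0.0819), and quantile normalization, with 0.30 (adjusted p = 0.125). The RFX genes that encode X box binding proteins, Rfx5, Rfxap and Rfxank, chosen after their values were seen, had log2 differences of -0.05, -0.36 and -0.15 and did not pass (adjusted p = 0.953, 0.537 and 0.865). Without GF 1 they did not pass either (adjusted p = 0.989, 0.514 and 0.809).

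Among other co-signalling molecules, 19 of 21 listed were in the table and 14 were tested. Of these, 1 passed, higher in GF, beside 6.76% of all genes. The unadjusted limma p was under 0.05 for 3 of the 14, beside 1928 of all 8799 genes. Nothing is read from these counts. The median log2 difference of the 14 was -0.16. Icosl, the ligand gene of the T cell costimulator ICOS, averaged 68.5 ± 11.8 normalized counts in SPF against 109 ± 27.9 in GF (SD, n = 7). It rose by 0.63 on the log2 scale (adjusted p = 0.0405). That call was lost without GF 1, which held 136 (adjusted p = 0.0872). It was also lost on leaving out SPF 2, 5, 6 or 7, or GF 2, 3, 6 or 7 (adjusted p from 0.0603 to 0.0856). Under upper-quartile scaling the rises of Ifngr1, Spi1 and Icosl did not pass (adjusted p = 0.0515, 0.0700 and 0.0795). Over the 4 lists, the 3 rises and 0 falls became 0 and 2 under that scaling and 2 and 2 under quantile normalization. Without GF 1, Vsir, the gene of the inhibitory ligand VISTA, rose in its place by 0.27 (adjusted p = 0.0480, against 0.0725 with all libraries). Vsir was chosen after its values were seen.

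Of 9 tested genes of CD40 signalling, 0 passed in limma with all libraries, beside 6.76% of all genes. The unadjusted p was under 0.05 for 1 of the 9, beside 1928 of all 8799 genes. The median log2 difference of the 9 was -0.10. Relb, a subunit gene of the noncanonical NF-kB pathway, had the smallest p, with means of 34.2 ± 5.56 in SPF against 19.1 ± 15.9 in GF (SD, n = 7; adjusted p = 0.0674). GF 1 held 53.1, above every other library. Without GF 1 the log2 difference of Relb moved from -1.08 to -1.36 and passed (adjusted p = 0.0130).

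**Figure D4:**
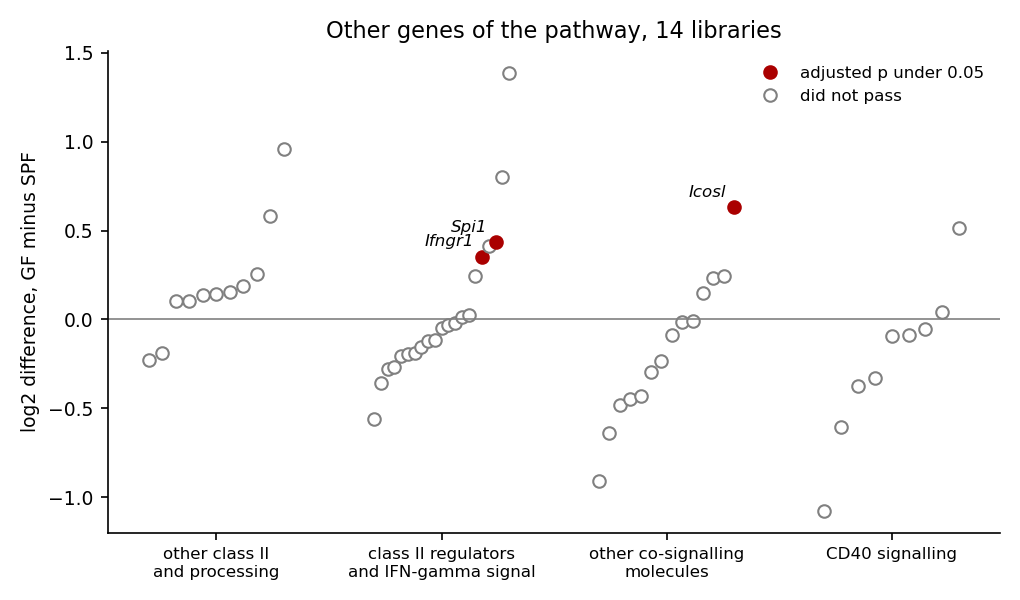
Log2 differences, GF minus SPF, of the tested genes in 4 lists of the pathway with all 14 libraries, where each point is a gene and filled points passed at an adjusted p under 0.05. Ifngr1, Spi1 and Icosl rose, and the other points are open.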

How the data were processed

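Per the submitters' processing notes, the authors used TopHat and mm9. They deposited 1 signal value per RefSeq transcript, here called a normalized count. The sources used here give no counting tool, scaling method or use of strand. In each library 84.5% to 86.7% of positive values were whole multiples of 1 step within 0.01 of a read, so whole reads were not recovered for all genes and no count model was run. Dividing totals over genes by the step gave depth. The row with the highest mean was kept per symbol. Rows without a symbol (217 of 18487) were named by accession where RefSeq had one. Near-identical copies, as in the H2 family, are uncertain where reads could have been shared.

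Groups were compared with two-sided limma tests (version 3.58.1, R 4.3.3) whose prior spread followed mean expression. The pseudocount was 1.44 normalized counts and the minimum mean 5 pseudocounts. On data simulated for this comparison, with 8772 genes tested, the procedure recovered 25.4%, 52.4% and 98.4% of genes changed 1.5-fold, 2-fold and 4-fold. Unchanged genes made up 5.83% of the calls. The simulation gave each gene the spread typical of its mean, drew libraries independently and held no outlying library like GF 1. These rates may therefore not hold for the real libraries. Promoter sequences are from RefSeq (GRCm38.p6). The members, the lists and the tests were chosen with earlier results of these data known. Some genes of these lists are not reported here and were left out of the lists' counts, sums and figures. The rule for named genes took all members, up to 4 passing genes of each list or the one of smallest p, the 5 genes most like Cd74 and Cd86 by r, the 10 genes in which GF 1 stood farthest above the other libraries, and other cells' markers over 4 times higher there. Alternatives were other scalings, pseudocounts, minimums, row choices, limma settings, a replicate block and the omission of libraries.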

Additional observations from a re-analysis of the deposited data

Results flagged for a closer look

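A library was flagged where its gap to the next of the 7, as a part of the group's range, exceeded Dixon's 95% critical value. Chance alone does this in about 1 group in 20 where values are normally distributed. Counts with many values at 0 are not, so that rate does not apply here. Of 20 groups, 10 were flagged. GF 1 was singled out by its class II values, so its flags on those genes describe that choice and are no separate evidence. In GF, 6 of the 7 flags were GF 1, at 931 normalized counts for H2-Aa, 413 for H2-Ab1, 653 for H2-Eb1, 1195 for Cd74, 23.9 for Ciita and 9.37 for Cd40. The seventh was GF 3 at 19.9 for Cd80, against 7.36 in the next GF library. In SPF, the flags were SPF 2 at 11.8 for H2-Aa, SPF 5 at 7.43 for H2-Eb1 and SPF 4 at 3.34 for Ciita. In groups mostly at 0 a few reads make a flag, as for H2-Aa and Ciita in SPF and for Cd40 in GF. The flag of H2-Eb1 in SPF rested on 11 reads, with 3 SPF libraries at 0. That of Ciita in GF rested on 23 reads in GF 1, against 3 in GF 6.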

How the results depend on the processing

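The 2 member calls, H2-DMb1 higher and Cd86 lower, held under all alternatives except limma without a mean trend, where 0 members passed (adjusted p = 0.0799 and 0.0503) and the calls over all genes fell from 595 to 320. Leaving out single libraries gave 412 to 628 calls over all genes, 2 among the members each time and 1 to 5 among the other listed genes, against 3 with all libraries (1 without SPF 5 and 5 without GF 1). Without GF 1, GF 6 and SPF 2, 319 genes, 2 members and 1 listed gene passed. Of the listed genes 1 passed with no minimum mean and 0 without a mean trend. The causes were not tested. Upper-quartile scaling shifted the median of all genes to -0.11 and turned the split of 325 rises and 270 falls to 193 and 422, and quantile normalization to 252 and 283. Of the 7 tested members and of Marchf1, Ifngr1, Spi1, Icosl and Relb, none changed sign under any alternative. The other named genes were refitted without GF 1 alone. Over all alternatives H2-DMb1 lay between 0.51 and 0.73 and Cd86 between -1.33 and -1.03 on the log2 scale, and calls were lost in 15 of 27 for Icosl, 7 for Spi1 and 3 for Ifngr1. A replicate block gave 526 calls, 2 members and 3 listed genes, with Icosl (adjusted p = 0.0504) lost. The labels do not say whether same-numbered libraries share more than a number, and their deviations correlated between -0.06 and 0.05. Cd80, Cd40 and Ciita lay below the minimum mean and did not pass without it, and H2-Aa and H2-Eb1 were tested under 25 of 27 alternatives.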
